A study of Schizosaccharomyces pombe with 28 samples.

Results

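Introns that interrupt protein-coding sequence were described from the gene annotation deposited with a study of heterochromatin in the fission yeast Schizosaccharomyces pombe. Members were chosen by position alone. Where 1 locus tag had 2 or more coding (CDS) rows, each gap between consecutive rows was counted as 1 intron. This gave 5065 introns in 2389 of 5120 coding genes. Thus 46.7% of coding genes were spliced (95% Wilson interval 45.3 to 48.0%), and the other 2731 genes had an uninterrupted coding sequence. "Spliced" here means that the annotation holds an intron. No splicing was measured.

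The study tested how substitutions in the HP1 protein Swi6 change the inheritance of silencing at an ade6+ reporter that is first silenced through TetR-Clr4-I, the histone methyltransferase Clr4 tethered to tetO sites. Its 28 ChIP-seq libraries profiled H3K9me2 or H3K9me3 in swi6-Y (T278Y), swi6-K (T278K), the same variants with epe1 deleted, epe1Δ, clr4Δ and swi6-WT cells, without tetracycline or after 24 hours in it, and 1 library whose genotype label names both variants was left in no group. The annotation is that of the reporter strain and is the same for every library, so no value below belongs to a sample, none has a replicate or an SD, and no groups were compared. Wilson intervals are given only as a scale for counting and treat genes or introns as independent, which they are not.

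Introns are cut out of pre-mRNA by the spliceosome. The U1 snRNP pairs with the 5′ splice site, the U2 snRNP marks the branch site, and the adenosine of the branch site attacks the first base of the intron before the exons are joined at the 3′ splice site. Fission yeast is known for many short introns with recognisable branch sites, whereas budding yeast keeps introns in few of its genes.

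The introns of genes on a list drawn up around the study show these parts side by side. They are printed 5′ to 3′ as transcribed, from the RefSeq reference genome of the species (ASM294v3), whose chromosomes I and II have the lengths given in the annotation, with 2234 of 2255 introns on I and 1867 of 1884 on II at the same positions. Capitals mark the first and last pair of bases of the intron and, where present, the branch motif nearest to the 3′ end (CTAAC with its T-ended variant CTAAT, together with the rarer form CTGAC and its T-ended variant CTGAT, searched on the transcribed strand in the last 50 bases, where a motif ending in C may share that C with the next one).
chp2 intron 1 (chrII:4350559-4350595, + strand): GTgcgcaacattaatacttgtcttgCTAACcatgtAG
crb3 intron 1 (chrI:2311572-2311693, - strand): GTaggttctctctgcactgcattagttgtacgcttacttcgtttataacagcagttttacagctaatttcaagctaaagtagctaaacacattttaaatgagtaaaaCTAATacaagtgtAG
crb3 intron 2 (chrI:2310518-2310560, - strand): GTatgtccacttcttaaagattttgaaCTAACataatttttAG
ckb1 intron 1 (chrI:4502431-4502509, + strand): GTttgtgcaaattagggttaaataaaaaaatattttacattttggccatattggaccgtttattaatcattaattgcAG
ckb1 intron 2 (chrI:4502790-4502994, + strand): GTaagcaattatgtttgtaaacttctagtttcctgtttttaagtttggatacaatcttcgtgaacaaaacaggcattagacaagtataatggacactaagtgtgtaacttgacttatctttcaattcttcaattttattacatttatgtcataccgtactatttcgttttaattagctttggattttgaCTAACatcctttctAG
hsk1 intron 1 (chrII:3198689-3198746, - strand): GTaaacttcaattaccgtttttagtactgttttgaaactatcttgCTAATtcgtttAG
hsk1 intron 2 (chrII:3197780-3197842, - strand): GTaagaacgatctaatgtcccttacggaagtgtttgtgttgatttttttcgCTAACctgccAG
mst2 intron 1 (chrI:2366265-2366380, - strand): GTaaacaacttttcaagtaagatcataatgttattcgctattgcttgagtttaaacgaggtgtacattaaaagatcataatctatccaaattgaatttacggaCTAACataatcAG
mst2 intron 2 (chrI:2366128-2366174, - strand): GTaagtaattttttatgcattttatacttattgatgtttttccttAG
ulp2 intron 1 (chrI:1766645-1766690, - strand): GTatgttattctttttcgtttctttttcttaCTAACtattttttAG
ulp2 intron 2 (chrI:1766531-1766588, - strand): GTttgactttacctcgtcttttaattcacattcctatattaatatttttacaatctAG
ulp2 intron 3 (chrI:1766189-1766336, - strand): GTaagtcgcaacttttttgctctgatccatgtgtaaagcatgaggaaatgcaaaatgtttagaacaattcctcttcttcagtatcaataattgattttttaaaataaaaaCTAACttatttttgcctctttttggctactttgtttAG
ulp2 intron 4 (chrI:1765273-1765341, - strand): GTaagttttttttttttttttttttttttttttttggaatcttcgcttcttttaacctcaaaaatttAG
ulp2 intron 5 (chrI:1765114-1765167, - strand): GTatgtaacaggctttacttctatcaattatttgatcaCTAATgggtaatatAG
ulp2 intron 6 (chrI:1764793-1764876, - strand): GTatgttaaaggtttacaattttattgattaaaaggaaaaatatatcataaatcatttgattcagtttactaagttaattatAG
All 15 started with GT and ended with AG, and 10 of them held a branch motif, 7 as CTAAC and 3 as CTAAT. In these 10 the last A of the motif lay 8 to 34 bases before the last base of the intron.

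These 15 introns belong to 6 of the 24 genes found by symbol on that list, called study genes here. Some study genes, among them ulp2, mst2, hsk1, ago1 and dcr1, are not named in the paper's text or strain list. chp2 encodes the second HP1 protein of fission yeast, and its only intron, of 37 bp, followed 564 of 1143 coding bases. crb3 encodes a WD-repeat subunit of the rixosome, ckb1 the regulatory subunit of casein kinase 2, hsk1 the Dbf4-dependent kinase of replication origins, mst2 a histone acetyltransferase and ulp2 a SUMO protease. ulp2 had the most introns of the list, 6, of 46 to 148 bp. A further 3 study genes were spliced on chromosome III, where positions are shifted against the reference and no sequence is printed. These were ipi1, a rixosome subunit, with introns of 43, 48 and 50 bp, grc3, the polynucleotide kinase of the rixosome, with 1 of 77 bp, and ago1, which encodes Argonaute, with 1 of 371 bp. The coding sequences of swi6, clr4, epe1, bdf2, clr3, mit1 and dcr1 had no intron. In all, 9 of the 24 study genes were spliced (37.5%, 95% Wilson interval 21.2 to 57.3%), with 20 introns of median length 60.5 bp, against 46.7% and 56 bp over all coding genes.

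Most spliced genes held few introns. Of the 2389 spliced genes, 1067 had 1 intron (44.7%), 659 had 2 and 335 had 3. Genes with 5 or more introns numbered 167, or 6.99% of spliced genes, and carried 1031 introns, 20.4% of the total. Only 10 genes had 10 or more. The most intron-rich gene was trt1 (SPBC29A3.14c, chrII:2062472-2066110, − strand), which encodes the catalytic subunit of telomerase. Its 2967 coding bases were split by 15 introns of 36 to 71 bp that summed to 672 bp. rdh54, which encodes a DNA translocase of recombination, followed with 14 introns of 35 to 91 bp, and clr6, a class I histone deacetylase that acts in silencing, with 13 introns of 40 to 90 bp in only 1218 coding bases. trk2, a potassium transporter, and gem1, a GTPase of the mitochondrial outer membrane and the leader on chromosome III, had 12 each. In these 5 genes the median intron was 38.5 to 47.5 bp long, and only trk2 had an intron over 100 bp, of 210 bp.

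Introns were short and narrowly spread. Their median length was 56 bp, the quartiles were 46 and 85 bp, and 57.1% were 36 to 60 bp long. The most frequent single length was 45 bp, with 164 introns. The upper tail was long but thin. Lengths of 200 bp or more were reached by 312 introns (6.16%) and lengths of 500 bp or more by 18. Together the introns summed to 414152 bp, or 3.29% of the annotated chromosomes. Median length differed little between chromosomes, with 55 bp on I, 55 bp on II and 57 bp on III. The upper quartiles were 85, 80 and 94 bp, and the 95th percentiles 217.05, 204.85 and 245 bp.

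**Figure D1:**
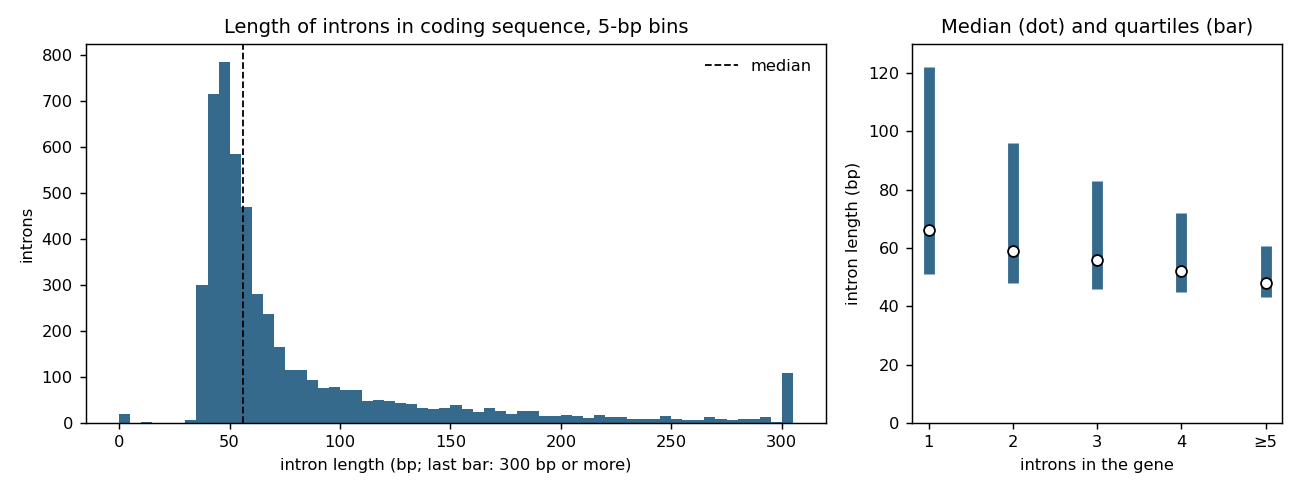
Left, number of introns by length in bp, in 5-bp bins, with all lengths of 300 bp or more in the last bar and the median of 56 bp dashed. Right, median (dot) and quartiles (bar) of intron length in bp by the number of introns in the gene; the median is 66 bp in genes with 1 intron and 48 bp in genes with 5 or more.

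The fewer introns a gene had, the longer they were in the median. Introns of single-intron genes had a median of 66 bp and an upper quartile of 122 bp. In genes with 5 or more introns the median was 48 bp and the upper quartile 60.5 bp. Within such genes the first intron (median 49 bp) and later ones (median 48 bp) were alike in the median, and the 95th percentiles were 177.8 and 114.7 bp. Among 1316 genes with 2 or more introns, all of 20 bp or more, the longest intron was a median of 1.7 times the shortest. The first intron was the longest in 460 of these genes (34.95%), and the share expected by chance was not computed.

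The 5 longest introns were in genes of metabolism and signalling. An 837-bp intron interrupted elo1 (SPAC1639.01c, chrI:252753-253589, − strand), named for a fatty acid elongase, after 125 coding bases. It began GTgagtttgt and ended ttcatgttgatttttaCTAACaatttttAG, with the branch motif close to the 3′ end as in short introns. gnd1, 6-phosphogluconate dehydrogenase of the pentose phosphate pathway, had an 817-bp intron ending tcgaatgtgaatatgCTAACatcattgtAG. cit1, citrate synthase, had a 784-bp intron ending tttactttttaCTAACttttaaattattAG, prr1, a response regulator of oxidative stress, one of 756 bp ending tgagtttatcaCTAACttactgctttttAG, and rad25, a 14-3-3 protein of the DNA damage checkpoint, one of 717 bp ending tttgcttctttgctaaCTGATaatgtatAG. Each of these 5 introns carried a branch motif within its last 30 bases.

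At the lower end the annotation held 20 gaps too short for a spliceosomal intron. Of these, 8 were 1 bp, 11 were 2 bp and 1 was 11 bp long, in 19 genes, and 14 of the genes had no longer gap. By the rule on ties the first of the 1-bp gaps were in SPAC23H3.04, nnf1 (a kinetochore protein), lsd90, utp18 (a component of the ribosome assembly machinery) and pof4 (an F-box protein). Joining the CDS rows across the 18 such gaps on chromosomes I and II gave in every case the protein sequence that the file itself lists, so the file's proteins skip these bases. spa1, with a gap of 1 bp after 201 coding bases, encodes ornithine decarboxylase antizyme, whose translation is known to need a ribosomal frameshift. For the others the files give no reason for the gap. Only 6 of the 18 gaps were at the same positions in the RefSeq annotation of the same genome, which has 28 gaps under 20 bp of its own. No gap fell between 12 and 29 bp, and without the 20 short gaps 5045 introns remained in 2375 genes.

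The shortest introns above that break were 30 to 34 bp long. Ties were taken by locus tag, and SPBPB2B2.07c, not printed, also had an intron of 34 bp. Those printed are in SPAC24B11.14, gpi18 (a mannosyltransferase of GPI anchors), vma11 (a proton pump subunit of the vacuole), atg44 (a mitochondrial fission factor) and nup131 (a nucleoporin). They were picked after their lengths were seen.
SPAC24B11.14 intron 2 (chrI:230800-230829, + strand): GTagttaacaaacatactctaaacttatAG
gpi18 intron 1 (chrI:309720-309750, - strand): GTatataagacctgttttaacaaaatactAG
vma11 intron 2 (chrI:2057696-2057727, + strand): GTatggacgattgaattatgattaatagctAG
atg44 intron 1 (chrI:3367021-3367053, - strand): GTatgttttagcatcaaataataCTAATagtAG
nup131 intron 1 (chrII:975138-975171, - strand): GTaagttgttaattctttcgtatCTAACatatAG
All began with GT and ended with AG, but only the longest of the set, those of atg44 and nup131, held one of the searched branch motifs.

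Introns were crowded towards the start codon. With position measured as coding bases before the intron over all coding bases, the median was 0.251. The first 10% of the coding sequence held 27.0% of introns (95% Wilson interval 25.8 to 28.2%) and the last 10% held 6.16%, and 68.7% lay before the midpoint. The skew was steeper in genes with 1 intron, where the median was 0.156 and the first 10% held 38.5%. In genes with 4 or more introns the median was 0.338 and the first 10% held 20.4%. In the later 60% of the coding sequence the shares of successive stretches of 10% were level, between 5.84 and 6.73% of all introns.

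**Figure D2:**
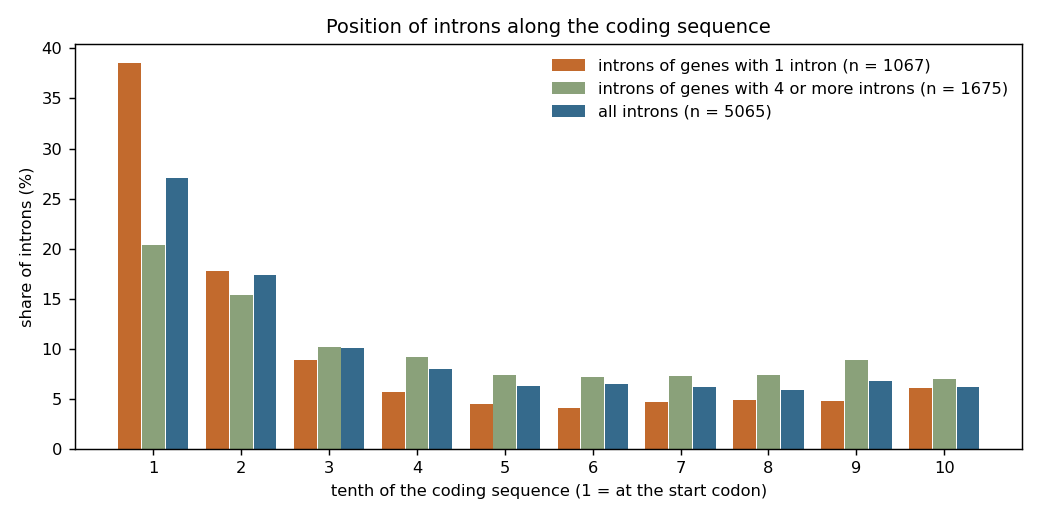
Share of introns (%) in 10 equal stretches of the coding sequence, from the start codon (1) to the stop codon (10), for genes with 1 intron (n = 1067), genes with 4 or more introns (n = 1675) and all introns (n = 5065). The first stretch holds 38.5, 20.4 and 27.0% of them.

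The share near the start also differed with coding length. In genes with coding sequences of 1000 bp or more the first 10% held 34.96% of introns, and in genes under 500 bp it held 14.2%. Counted in coding bases the order was the reverse, since 10% of a longer sequence spans more bases. Within 100 coding bases of the start codon lay 21.3% of introns in the longer genes and 42.95% in the shorter ones. The median intron followed 288 and 120.5 coding bases. In bases, the first intron followed a median of 109 coding bases, whereas a median of 438 coding bases came after the last one. The 5′ ends of coding sequences were thus cut into short pieces. First coding exons of spliced genes had a median of 109 bp, internal ones 135 bp and last ones 437.5 bp, while the coding sequences of unspliced genes had a median of 1194 bp.

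Some introns lay at the start codon itself. An intron directly after the ATG was found in 42 genes, more than at any other of the first 30 coding positions, where single positions held 1 to 17 introns. In 4 genes the intron split the start codon. cit1 had its single 784-bp intron after 2 coding bases, exo70, an exocyst subunit, a 50-bp intron after 2, and mpc1, a mitochondrial pyruvate carrier subunit, a 40-bp intron after 2. In trr1, thioredoxin reductase, a 299-bp gap followed 1 coding base, but that first CDS row has no strand in the file. In all, 349 of 2389 first introns (14.6%) were within 30 coding bases of the start codon and 81 last introns (3.39%) within 30 coding bases of the stop codon. At the stop codon itself only utp18 had a gap, and that gap was 1 bp.

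Internal coding exons could be very small. The shortest was 1 codon of 3 bp in trk2, and exons of 4 bp were found in rmt1, dtd1, mug16 and ubc1. Altogether 24 internal exons were of 12 bp or less and 119 of 30 bp or less, out of 2676.

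Spliced genes had somewhat shorter coding sequences than unspliced genes, with medians of 1044 and 1194 bp. The share of spliced genes was 64.2% among coding sequences under 300 bp (147 of 229) and 33.6% among those of 3000 bp or more (123 of 366). Between these lengths it moved only from 42.7 to 51.7% over 6 classes. Over all spliced genes the number of introns was only weakly related to coding length (Spearman's rho = 0.0952 across 2389 genes, which are not independent replicates). Median coding length was 987 to 1119 bp in genes with 1 to 5 introns. It was 1491 bp with 6 introns, 2242.5 bp with 7 and 2350.5 bp with 8. Genes with more introns were few, and clr6 with 13 had 1218 coding bases. Over spliced and unspliced genes together, the density was 0.162 introns per kb of coding sequence at 3000 bp or more and 4.56 introns per kb under 300 bp, values into which the share of spliced genes also enters.

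All 3 chromosomes had similar shares of spliced genes. On chromosome I 1069 of 2334 coding genes were spliced (45.8%, 95% Wilson interval 43.8 to 47.8%). The counts were 904 of 1869 on chromosome II (48.4%, 46.1 to 50.6%) and 416 of 917 on chromosome III (45.4%, 42.2 to 48.6%). The 3 intervals overlap. Introns numbered 2260, 1884 and 921, or 2.11, 2.08 and 2.21 in each spliced gene. Genes on the plus strand and on the minus strand were spliced in 47.4 and 46.0% of cases.

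Chromosome ends held fewer spliced genes. Within 100 kb of the 6 ends 46 of 188 coding genes were spliced (24.5%, 95% Wilson interval 18.9 to 31.1%), against 2343 of 4932 genes elsewhere (47.5%, 46.1 to 48.9%). The right end of chromosome I was the poorest, with 2 of 33 genes, and the right end of chromosome III reached 15 of 35. The windows of 100 kb with 10 or more coding genes, 126 in number, had a median of 47.4% spliced genes and quartiles of 38.7 and 55.7%. The lowest window, with 2 of 24 genes, was the last on chromosome I, and the highest was chrII:2900001-3000000 with 35 of 50 genes. Inside the centromere repeats (25153 bp on chromosome I, 41056 bp on II and 66100 bp on III, by the span of the repeat rows) there was no coding gene. In the 50 kb on each side of them 68 of 130 genes were spliced (52.3%, 43.8 to 60.7%).

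The neighbours of the silenced reporter were described by name. The reporter occupies chrIII:115325-118393 of the modified chromosome, and 19 coding genes lie within 20 kb of it, of which 5 were spliced (26.3%, 95% Wilson interval 11.8 to 48.8%), an interval that holds the 46.7% of all coding genes. tam14, the nearest coding gene at 69 bp, had introns of 57 and 66 bp in 213 coding bases. SPCC330.03c had 2 of 139 and 55 bp, SPCC330.19c 1 of 60 bp, rhp7, a repair gene, 1 of 48 bp, and sen54, a tRNA-splicing endonuclease subunit, 2 of 77 and 69 bp. All but tam14 lie between 4823 and 19294 bp from the reporter. pmp20 (SPCC330.06c), a peroxiredoxin gene 1264 bp away, and the other 13 neighbours had none.

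Splice sites were close to uniform. On chromosomes I and II 4117 of 4126 introns of 20 bp or more began with GT and ended with AG (99.8%). Another 6 began with GC and ended with AG, in alp21, sce3, can1, pha2, mnh1 and pla1. Only 3 had other ends, and they are printed with the first and last pair of bases in capitals and any branch motif as before.
tad2 intron 4 (chrII:3618919-3618955, + strand): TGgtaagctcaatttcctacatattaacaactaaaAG
lea1 intron 1 (chrII:4145930-4145984, - strand): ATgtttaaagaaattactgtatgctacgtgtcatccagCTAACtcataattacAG
SPBC3D6.16 intron 1 (chrII:1296964-1297021, + strand): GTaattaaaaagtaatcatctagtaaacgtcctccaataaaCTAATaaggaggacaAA
tad2 encodes a tRNA adenosine deaminase subunit and lea1 a U2 snRNP protein, so an intron annotated with unusual ends lies in a gene of the splicing machinery. In both tad2 and lea1 a GT stands directly after the first pair of bases of the annotated intron. The sources used here do not say how the gene models were drawn, nor whether GT and AG were required in drawing them.

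The 5′ splice site had a narrow choice of sequences. GTAAGT opened 1112 introns (27.0%, 95% Wilson interval 25.6 to 28.3%) and GTATGT 826 (20.02%, 18.8 to 21.3%). Of all windows of 6 bases on both strands of chromosomes I and II, 0.0264% read GTAAGT and 0.0262% GTATGT. A stood at the third base in 92.6% of introns and G at the fifth in 87.4%, whereas the fourth base was A in 49.5% and T in 37.2%. In the exon the last base before the intron was G in 56.6%. At the 3′ end TAG closed 2826 introns (68.5%), CAG 772 (18.7%) and AAG 523 (12.7%), while GAG closed 4. The fifth base from the 3′ end was T in 56.5%.

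A branch motif was found in 75.1% of all introns on chromosomes I and II (3111 of 4144, 95% Wilson interval 73.7 to 76.4%) within the last 50 bases. Of all windows of 50 bases on both strands of the same chromosomes 14.8% held one. CTAAC occurred in 43.9% of introns and in 3.30% of windows, CTAAT in 27.1 and 5.78%, and CTGAC in 6.06 and 2.18%. CTGAT was the exception, with 3.52% of introns and 4.36% of windows. Many introns are shorter than 50 bases, so that their searched stretch is smaller than the window it is set beside. A match is a run of letters and not a mapped branch site.

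The motif sat within a narrow range of places. From its last A to the last base of the intron the median distance was 11 bases, with quartiles of 9 and 13, and 87.3% of the 3111 distances were 5 to 15 bases. The single most frequent distance was 11 bases, with 450 introns, and 5 introns had the shortest distance of 3. Intron length made little difference to the place, with medians of 10 to 12 bases in 4 length classes.

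**Figure D3:**
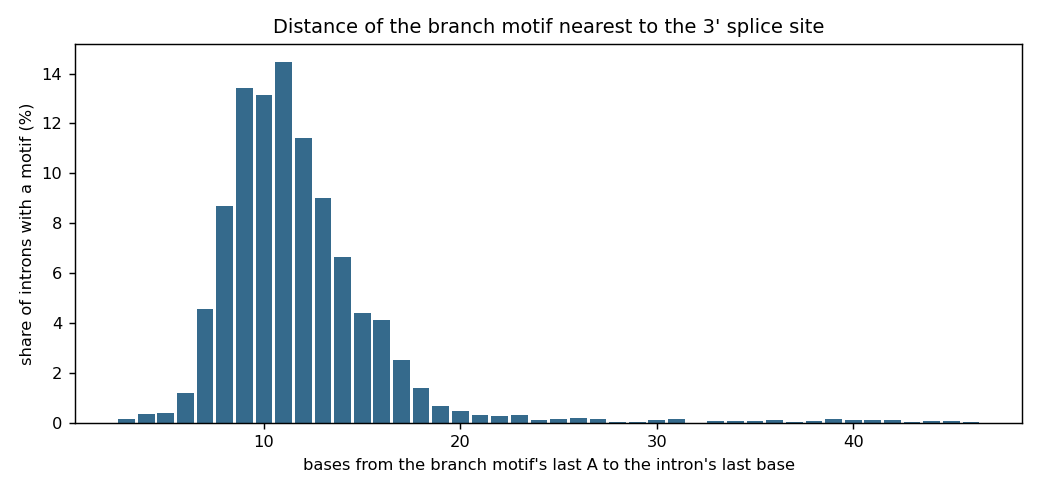
Distance in bases from the last A of the branch motif nearest to the 3′ splice site to the last base of the intron, as the share (%) of the 3111 introns on chromosomes I and II that hold a motif in their last 50 bases. The distances peak at 11 bases, and 87.3% are between 5 and 15.

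The most common 5′ splice site and the branch motif were more frequent in longer introns. GTAAGT opened 42.4% of introns of 200 bp or more, 36.5% of those from 100 bp to under 200 bp, 26.1% of those from 50 bp to under 100 bp and 21.9% of those under 50 bp. Branch motifs followed the same order, with 86.6, 82.1, 77.2 and 69.02%. GTATGT did not keep that order at the top, with 24.8, 25.6, 20.4 and 16.7%. In the introns under 50 bp fewer bases were searched, and the part of this in the lower share was not tested.

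Introns were poorer in G and C than the exons they separate. Over 332521 bases the introns had a GC content of 29.4%, against 38.98% in the coding exons of the same genes, 39.9% in unspliced coding sequences and 36.02% over both chromosomes. The gap held gene by gene, since the introns of 1926 of 1960 genes (98.3%) had a lower GC content than the coding exons of that gene. On the transcribed strand T made up 39.5% of intron bases and A 31.1%, against 30.3 and 30.7% in the exons.

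Reading frames gave a further view of the introns. Phase 0, between 2 codons, was the most frequent with 41.5% of introns, followed by phase 1 with 32.5% and phase 2 with 25.96%. On chromosome III phases 0 and 1 were level, with 37.4 and 37.7%. Intron lengths divisible by 3 made up 32.2% (95% Wilson interval 30.9 to 33.5%), against 34.1 and 33.7% for the lengths that leave 1 and 2. On chromosome III lengths divisible by 3 made up 35.1% (95% Wilson interval 32.1 to 38.2%). The shares were 31.5% on I (29.6 to 33.4%) and 31.6% on II (29.5 to 33.7%), and the intervals overlap. Internal coding exons had the same phase on both sides in 37.1% of cases (993 of 2676).

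If left in the mRNA, most introns would end the protein. Read on from the exon, an in-frame stop codon (TAA, TAG or TGA) occurred in 3541 of 4126 introns of 20 bp or more on chromosomes I and II (85.8%, 95% Wilson interval 84.7 to 86.9%). Among introns of a length divisible by 3, which do not shift the frame, 1171 of 1306 held a stop (89.7%, 87.9 to 91.2%), against 83.7 and 84.4% among the other lengths. Only 135 introns (3.27%) could be read through with neither a stop nor a frame shift. In introns under 50 bp the shares with a stop were 84.3% for lengths divisible by 3, and 77.6 and 75.4% for lengths that leave 1 and 2. The last 3 bases of the intron were read too, and TAG closed 68.5% of introns. Whether this TAG is in frame depends on the length and phase of the intron. Its part in the differences between lengths was not tested.

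Gene groups differed widely in their share of spliced genes. The lists were drawn by gene symbol, and each share is set beside 46.7% over all coding genes. All 11 listed subunits of RNA polymerase II were spliced (100%, 95% Wilson interval 74.1 to 100%), with 1 intron in rpb2, rpb6 and rpb7 and up to 6 in rpb1, the gene of the largest subunit. Small GTPases, the switches of membrane traffic and polarity, were spliced in 18 of 19 cases (94.7%), with 8 introns in rho2, 7 in ypt5 and none in ypt2. Ubiquitin-conjugating enzymes were spliced in 12 of 13 cases (92.3%), with 5 introns each in ubc1 and in hus5, whose product conjugates SUMO, and none in ubc8. Of the cohesin genes, which hold sister chromatids together, 9 of 10 were spliced. Here the meiotic subunit rec11 had 8 introns, the loader mis4 7 and psc3 5, the kleisins rad21 and rec8 1 and 4, psm1 and psm3 1 each, ssl3 3, wpl1 2, and pds5 none.

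Proteasome genes were spliced in 24 of 32 cases, with up to 3 introns, as in pup2. The list of spliceosome and splicing factors, whose products remove introns, was spliced in 40 of 62 cases (64.5%, 95% Wilson interval 52.1 to 75.3%). Among the 40 is cwf22, whose only gap is 2 bp. The leader was srp2, an SR protein gene, with 9 introns. The origin recognition complex had 4 of 6 genes spliced, with 2 introns in orc5, 1 each in orc1, orc3 and orc6, and none in orc2 and orc4. Among RNAi factors 6 of 10 were spliced. ers1 had 10 introns, dsh1 8, arb2 5, arb1 4, hrr1 3 and ago1 1, while rdp1, tas3, dcr1 and cid12 had none. In the rixosome ipi1 had 3, crb3 2 and grc3 1, while rix1, las1 and mdn1, the last with 14154 coding bases, had none.

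At the other end of the order stood histones and glycolysis. None of the 11 histone genes was spliced (95% Wilson interval 0 to 25.9%), and none of the 13 glycolytic genes (0 to 22.8%). Factors of HP1 silencing, H3K9 methylation and histone deacetylation were spliced in 3 of 20 cases (15.0%, 5.24 to 36.04%). These 3 were clr6 with 13 introns, the deacetylase gene sir2 with 5 and chp2 with 1. The other 17 had no intron in their coding sequence, among them swi6, chp1, clr4, rik1 and pcu4. They include clr1, clr2, clr3 and mit1 of the SHREC complex, to which the paper also assigns the product of the spliced chp2.

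The remaining lists lay nearer to all coding genes. TFIID subunits, taken by the symbol taf and so including taf1, which the file describes as a Taz1-interacting autophagy protein, were spliced in 7 of 14 cases, with 4 introns in taf5. Of the MCM helicase genes mcm2 (1 intron) and mcm5 (2 introns) were spliced and mcm3, mcm4, mcm6 and mcm7 were not. Tubulin genes ranged from 6 introns in gtb1 and 5 in nda3 to 1 in nda2 and none in atb2, and act1, which encodes actin, had none. Cell cycle kinases and cyclins were spliced in 5 of 13 cases, with 7 introns in cds1, 6 in chk1 and 4 in cdc2. Genes listed under meiosis were spliced in 55 of 134 cases (41.0%, 95% Wilson interval 33.1 to 49.5%). Of this list 19 were found by fixed symbol, and many others carry the symbol mug. mug137, with 6 introns, is described in the file as a BAR adaptor protein. Of the 9 mitochondrial ribosomal protein genes with the symbol mrp, mrp2 and mrp17 had 2 introns, mrp10, mrp21 and mrp49 had 1, and mrp4, mrp7, mrp20 and mrp51 had none.

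**Figure D4:**
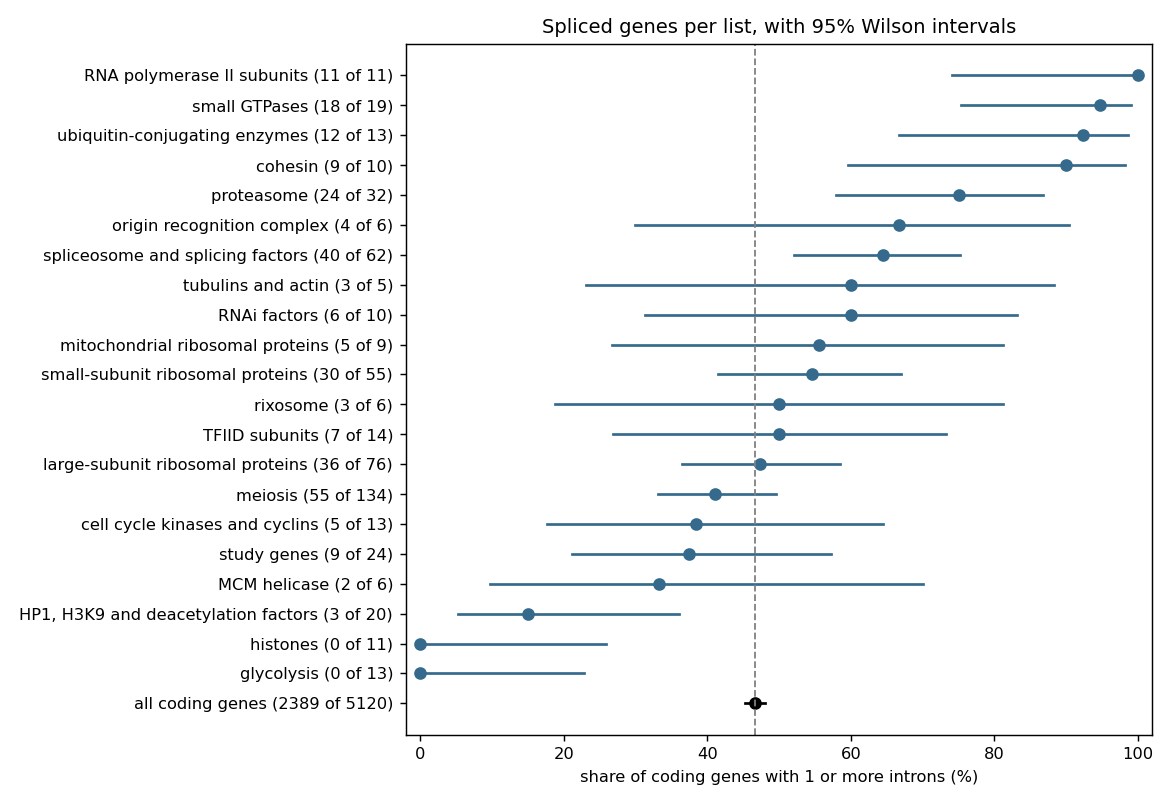
Share of coding genes with 1 or more introns (%) in each of 21 gene lists, with 95% Wilson intervals, spliced and listed genes in brackets, and the share over all coding genes (46.7%) as the lowest row and the dashed line. RNA polymerase II subunits stand at 100% and histones and glycolysis at 0.

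Cytosolic ribosomal protein genes had few but long introns. Large-subunit genes were spliced in 36 of 76 cases (47.4%) and small-subunit genes in 30 of 55 (54.5%), close to the 46.7% over all coding genes. Among spliced members 33 of 36 and 24 of 30 had a single intron. Large-subunit genes had at most 2 introns, as in rpl22, and small-subunit genes at most 3, in rps13. Their introns had medians of 87 and 72 bp, against 56 bp over all introns. Of them 46.2 and 43.2% were 100 bp or longer, against 20.3%. Most spliced members had 1 intron, and the introns of all single-intron genes had a median of 66 bp, nearer to these values.

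Many of these proteins are encoded by duplicated genes, and the copies could be compared. Of 52 ribosomal proteins with 2 or 3 numbered gene copies, 24 had all copies spliced, 23 had none spliced and only 5 were mixed (rpl1, rpl12, rps0, rps9 and rps26). In 19 of the 24 the introns of all copies followed exactly the same number of coding bases. In 3 of the other 5 (rpl7, rpl30 and rps12) the distance to the stop codon was the same in both copies, namely 627, 91 and 57 coding bases. In rpp1 and rps30 1 copy had an intron more, in rpp102 and rps3002, and the shared intron was at the same coding position in each copy, after 69 and 39 bases.

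Lengths differed more than positions. Over the 21 intron positions compared in the 19 families the longest copy was a median of 1.61 times as long as the shortest, and 9 positions differed by a factor of 2 or more. rps10 had the widest pair, 219 bp in rps1001 and 48 bp in rps1002. In rpl23 the pair was 111 bp in rpl2301 and 265 bp in rpl2302, and in rps28 it was 149 bp in rps2801 and 50 bp in rps2802. Lengths were equal at only 2 positions, 1 of them the single intron of rpl41.
rpl4101 intron 1 (chrI:5402111-5402162, - strand): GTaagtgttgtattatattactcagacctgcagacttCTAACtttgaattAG
rpl4102 intron 1 (chrI:2853797-2853848, - strand): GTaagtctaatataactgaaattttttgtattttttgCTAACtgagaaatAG
With no gaps allowed, 27 of the 52 bases were equal in this pair (51.9%), and both opened with GTAAGT and held CTAAC as the branch motif. In the first introns of rps2501 and rps2502, the other pair of equal length, 19 of 50 bases were equal (38.0%).

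**Figure D5:**
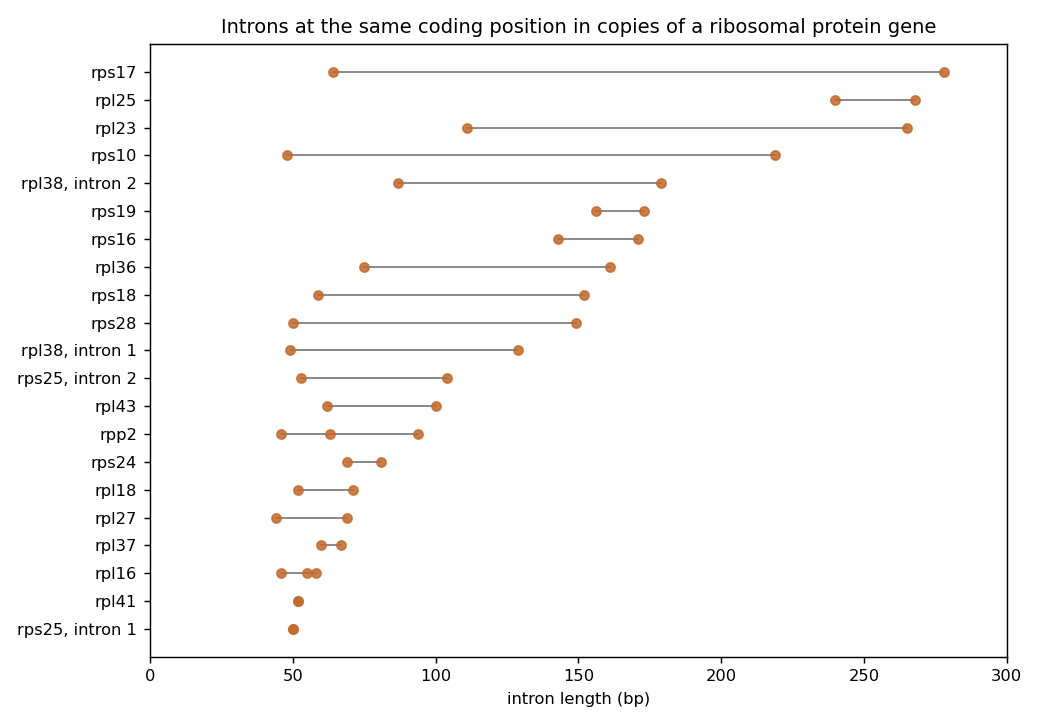
Intron length in bp of each copy (points) at the 21 intron positions that are shared by all copies of 19 duplicated or triplicated ribosomal protein genes, sorted by the longest copy. rps10 spans 48 to 219 bp, and rpl41 and the first intron of rps25 have copies of equal length.

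Exact repeats of an intron were rare. Among 4979 introns of 20 bp or more read from the reference on all chromosomes, with introns at 1 position counted once, 9 sequences occurred more than once, in 22 introns. Most lay in duplicated ends of chromosomes or gene pairs. A 58-bp intron occurred in 5 genes near the ends of chromosomes I and II (SPAC212.01c, SPAC750.06c, SPBC1348.01, SPBCPT2R1.01c and SPBCPT2R1.04c), and the proteasome genes rpn501 and rpn502 shared a 47-bp intron. These 2 are printed with the same capitals.
SPAC212.01c intron 1 (chrI:29228-29285, + strand): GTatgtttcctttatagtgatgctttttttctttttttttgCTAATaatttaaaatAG
rpn501 intron 1 (chrI:1266353-1266399, + strand): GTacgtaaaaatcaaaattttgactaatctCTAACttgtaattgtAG
The other repeats were a 50-bp intron in 3 genes, a 64-bp intron in plb4 and SPBC1348.10c, both introns of yip11 and yip12, and 3 introns shared by pairs of wtf genes.

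Every coding wtf gene was spliced. Some wtf genes are known as meiotic drivers that kill spores which do not inherit them. The family was singled out after its values were seen. All 20 coding wtf genes, every one of them on chromosome III, were spliced, with 2 to 6 introns and a median of 4. Their 84 introns made up 9.12% of the introns of that chromosome and had a median of 49 bp, the 1-bp gap of wtf12 among them. Without them chromosome III had 396 spliced genes of 897 (44.1%).

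Few introns held other annotated features. Leaving aside a gene row that covers exactly the intron shared by meu1-1 and meu1-2, and whose locus tag is listed as a synonym of both, 2 introns contained a whole feature of another locus. The first intron of ipa1 (481 bp) contained the 100-bp noncoding RNA SPNCRNA.498, and the first intron of rps3 (252 bp), a small-subunit ribosomal protein gene, the 75-bp SPNCRNA.497. Both RNAs were on the strand of their host. Another 5 introns were listed at the same positions under 2 locus tags, so that 5060 distinct intervals underlie the count of 5065.

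Gaps outside the coding sequence were a small addition. Next to rows of untranslated regions of the same genes there were 217 gaps before the start codon, in 207 genes, and 59 after the stop codon, in 56 genes. Of these, 42 and 2 lay between an untranslated row and the coding sequence, and the others between untranslated rows. The shortest were 2 and 32 bp, so not every gap before the start codon has the length of an intron. Their median lengths were 63 and 56 bp, against 56 bp inside the coding sequence. Of these genes 113 and 19 had no intron in the coding sequence. The mRNA rows of the file do not carry these gaps. They repeat the 5065 gaps of the coding rows and add 1 of 566 bp after the stop codon of mpo1.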

How the data were processed

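The study made 28 ChIP-seq libraries in 27 groups of 1 library, and 1 of the 28 was left in no group because its label names both Swi6 variants. Per the labels their reads were processed with Trimmomatic and BWA. No value of a library was used here, so no depth bears on these results, and 0 per-sample columns were left unused. The file analysed is the deposited annotation of the reporter strain, exported by the authors with Geneious 7.1.5. Its other columns are text, and its first and last positions in bp, counted from 1, are neither normalized nor measured. The sources used here do not name the genome build behind it.

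CDS rows were joined by locus tag and sorted by position, and each gap was taken as an intron. Position was the coding bases before the intron over all coding bases. Sequences of chromosomes I and II came from RefSeq ASM294v3, which has the same lengths, and 2234 of 2255 and 1867 of 1884 introns are at the same positions in its annotation. They are those of the reference genome and not of the strain. Chromosome III differs in length and was left out of counts of sites, except where stated. On I and II 1972 of 1973 spliced and 2229 of 2230 unspliced genes translated to the protein that the file lists. Symbols came from the file for 3028 genes and only from the RefSeq table for 1229, while 863 had none. Python 3.11.15, numpy 2.4.6, scipy 1.17.1, Biopython 1.88 and matplotlib 3.10.9 were used. The reader was tested on a simulated annotation and recovered every intron of 200 genes.

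Members, lists and the rule for names were chosen with earlier results of these data known. The rule named the 5 genes with the most introns, the leader of each chromosome, the 5 longest and shortest introns, and study genes. It also named neighbours of the reporter within 20 kb and the leader of each list, with all members of lists of up to 10 genes. Introns with ends other than GT-AG and GC-AG, and hosts of whole features, were named too. Some genes that the rule names are not reported here. The GC-AG genes, the introns at start codons, the smallest exons, the shortest introns of 20 bp or more, the ribosomal copies, identical introns, the wtf family and further list members were named after their values were seen. Alternatives changed the shortest gap, the grouping of rows, the annotation, the window of the branch motif and the genes included.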

Additional observations from a re-analysis of the deposited data

How the results depend on the processing

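Of 38 alternatives, 34 were planned and 4 were added after the data were seen. Of the 38, 31 stayed within the counting interval of the value or within 1.5 times the count, and 7 did not. Some of the 31 could not move. No coding gene is marked pseudo, so leaving such genes out changed nothing. The share of GT-AG ends on chromosomes I and II only is the main value itself. The median intron length was 65.75 bp as a mean per gene, against 56 bp over introns. The median relative position was 0.156 in genes with 1 intron and 0.112 for first introns, against 0.251. The first 10% of the coding sequence held 38.5% of introns in genes with 1 intron and 34.96% in genes with 1000 coding bp or more, against 27.0%. Spliced genes with 500 coding bp or more had 1.47 introns per kb, against 1.64. GT-AG ends were found in 99.8% of introns of 30 bp or more, against 99.3% of all gaps, since the gaps under 20 bp were left out. For the number of introns the alternatives ranged from 5045 to 5341. The highest count added gaps beside untranslated rows, and this and the counts with chromosome III read at the reference's coordinates were chosen after seeing the data. No paired analysis was possible because no sample value enters any result. The annotation limits every value: it holds 1 gene model for each locus tag, no evidence for any intron, and no alternative splicing.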
